A study of Mus musculus with 6 samples.

Results

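The regions described here are the accessible chromatin regions around 6 genes of one regulatory network, the SIX-family genes Six2 and Six4, the EYA genes Eya1, Eya2 and Eya4 and the DACH gene Dach1, in the distal forelimb bud of the mouse with and without HOX13 function. A region (peak) was taken when its midpoint lay inside the gene or within 300 kb of the gene's transcription start site, which gave 155 of the 61954 peaks in the deposited table. The Dach1 window held 14 peaks, Six2 held 33, Six4 held 32, Eya1 held 21, Eya2 held 36 and Eya4 held 19, and no peak lay in more than 1 window. Accessibility was measured by ATAC-seq, in which the transposase Tn5 inserts sequencing adapters into open chromatin. The comparison is between 2 libraries of WT distal forelimb buds and 2 libraries of distal forelimb buds labelled HOX13-/-, written Hox13-/- here, all at E11.5 and on a mixed C57Bl/6 x 129 background. Hox13-/- embryos carry null alleles of both Hoxa13 and Hoxd13, constitutively and with a lacZ allele in the case of Hoxd13, as the study's methods describe. Every library came from 50000 cells, for which both forelimb buds of a single embryo were combined, so the replicates are different embryos. A further 2 libraries of proximal buds, titled WT but with a control RosaHoxa11/Hoxa11 genotype label, were not analysed here.

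SIX-family proteins are homeodomain transcription factors, EYA proteins are coactivators and phosphatases that do not bind DNA themselves and are brought to genes by SIX-family partners, and DACH proteins are nuclear cofactors of the SKI family that often act as corepressors in the same network. In the limb bud the network is known for its part in muscle precursors and in the connective tissue and tendon lineages, and Dach1 is a known gene of the distal mesenchyme. HOXA13 and HOXD13 are the homeodomain factors of the most distal limb domain, from which the digits form.

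The 12 sequences below carry the accessibility differences described further on. For each gene they are the peak with the smallest p among those lower in Hox13-/- and the peak with the smallest p among those higher, as up to 300 bases about the peak's midpoint, on the plus strand of GRCm38 (mm10). Capitals mark a match, on either strand, to the HOX13-type words CAATAAA and TCGTAAA or to the SIX-type word TCAGGTTTC. These words do not overlap each other, and they stand in 6.55%, 1.16% and 0.699% of the 300-base windows about all peak midpoints. Of the 12 sequences 1 held a match, TCGTAAA read on the minus strand in the Eya4 exon.
Dach1 lower, promoter, chr14:98169772-98170071: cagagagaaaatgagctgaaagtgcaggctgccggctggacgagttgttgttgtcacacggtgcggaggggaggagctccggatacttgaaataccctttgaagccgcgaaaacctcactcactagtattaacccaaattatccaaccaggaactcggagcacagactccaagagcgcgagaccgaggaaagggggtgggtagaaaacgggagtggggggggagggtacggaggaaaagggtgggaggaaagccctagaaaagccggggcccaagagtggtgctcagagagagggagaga
Dach1 higher, intron of the gene, chr14:98038686-98038985: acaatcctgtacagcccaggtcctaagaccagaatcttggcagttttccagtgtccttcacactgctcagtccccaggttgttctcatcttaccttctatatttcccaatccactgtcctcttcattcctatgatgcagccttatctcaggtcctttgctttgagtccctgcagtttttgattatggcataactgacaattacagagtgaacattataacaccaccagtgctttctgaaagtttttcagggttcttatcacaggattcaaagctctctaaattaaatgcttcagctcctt
Six2 lower, intergenic, chr17:85463908-85464207: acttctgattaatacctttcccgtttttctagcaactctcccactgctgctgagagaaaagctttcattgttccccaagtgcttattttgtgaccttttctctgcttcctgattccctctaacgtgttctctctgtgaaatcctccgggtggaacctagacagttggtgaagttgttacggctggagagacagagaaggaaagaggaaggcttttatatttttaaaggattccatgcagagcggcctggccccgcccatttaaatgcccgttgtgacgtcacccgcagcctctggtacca
Six2 higher, intergenic, chr17:85921112-85921411: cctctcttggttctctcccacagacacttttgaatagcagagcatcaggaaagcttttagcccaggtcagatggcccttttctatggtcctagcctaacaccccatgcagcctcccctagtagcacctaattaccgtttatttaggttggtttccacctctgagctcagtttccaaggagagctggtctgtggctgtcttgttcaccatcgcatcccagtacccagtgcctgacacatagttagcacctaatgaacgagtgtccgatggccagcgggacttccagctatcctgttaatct
Six4 lower, intron of another gene, chr12:73185024-73185183: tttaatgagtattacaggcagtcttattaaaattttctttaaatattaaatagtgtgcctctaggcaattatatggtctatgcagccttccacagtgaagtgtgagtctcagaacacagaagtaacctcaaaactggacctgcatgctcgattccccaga
Six4 higher, intergenic, chr12:73405656-73405955: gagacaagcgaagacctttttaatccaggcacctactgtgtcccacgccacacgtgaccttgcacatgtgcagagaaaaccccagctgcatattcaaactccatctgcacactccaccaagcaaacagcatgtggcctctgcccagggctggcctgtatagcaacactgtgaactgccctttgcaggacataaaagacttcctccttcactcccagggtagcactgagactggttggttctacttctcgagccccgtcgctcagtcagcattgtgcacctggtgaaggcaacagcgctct
Eya1 lower, intergenic, chr1:14511724-14512001: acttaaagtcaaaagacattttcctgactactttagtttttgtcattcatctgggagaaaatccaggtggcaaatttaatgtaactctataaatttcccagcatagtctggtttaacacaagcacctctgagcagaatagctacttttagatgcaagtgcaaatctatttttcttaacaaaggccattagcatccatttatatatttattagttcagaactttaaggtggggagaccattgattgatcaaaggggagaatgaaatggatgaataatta
Eya1 higher, intergenic, chr1:14162910-14163209: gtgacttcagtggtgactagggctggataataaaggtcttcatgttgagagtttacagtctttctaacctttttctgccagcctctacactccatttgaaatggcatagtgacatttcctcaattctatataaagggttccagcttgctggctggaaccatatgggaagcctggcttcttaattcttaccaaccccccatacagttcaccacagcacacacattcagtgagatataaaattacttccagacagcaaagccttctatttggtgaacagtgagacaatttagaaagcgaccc
Eya2 lower, intron of the gene, chr2:165642011-165642310: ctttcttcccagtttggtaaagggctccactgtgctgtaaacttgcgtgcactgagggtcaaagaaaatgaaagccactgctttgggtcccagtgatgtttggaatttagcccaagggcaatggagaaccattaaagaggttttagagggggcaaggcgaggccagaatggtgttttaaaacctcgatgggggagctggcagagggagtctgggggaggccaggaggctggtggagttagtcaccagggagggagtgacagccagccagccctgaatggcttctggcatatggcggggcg
Eya2 higher, intron of the gene, chr2:165748599-165748898: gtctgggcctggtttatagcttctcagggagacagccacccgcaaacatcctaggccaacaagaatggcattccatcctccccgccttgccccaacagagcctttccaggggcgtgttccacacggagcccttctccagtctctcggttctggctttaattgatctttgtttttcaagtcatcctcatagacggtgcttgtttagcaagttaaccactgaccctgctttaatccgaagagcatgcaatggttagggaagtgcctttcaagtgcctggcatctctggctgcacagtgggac
Eya4 lower, intergenic, chr10:23532354-23532653: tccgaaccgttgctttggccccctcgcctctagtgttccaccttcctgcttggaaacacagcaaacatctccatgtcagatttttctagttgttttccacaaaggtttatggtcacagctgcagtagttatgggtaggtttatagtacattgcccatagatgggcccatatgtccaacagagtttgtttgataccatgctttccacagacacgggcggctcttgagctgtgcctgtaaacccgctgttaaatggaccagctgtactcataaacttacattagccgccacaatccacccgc
Eya4 higher, exon, chr10:23157191-23157470: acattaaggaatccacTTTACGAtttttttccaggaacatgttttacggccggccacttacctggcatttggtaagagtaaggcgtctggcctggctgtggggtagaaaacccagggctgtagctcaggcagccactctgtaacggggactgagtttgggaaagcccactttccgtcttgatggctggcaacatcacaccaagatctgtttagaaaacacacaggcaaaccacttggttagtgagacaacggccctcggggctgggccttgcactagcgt

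The rLog values on which the comparison rests are on a log2 scale, scaled for library size by the authors and shrunk towards each peak's mean, so that differences of weak peaks are understated. They hold no read numbers, and the depth of a single peak is therefore unknown. Replicates of 1 genotype differed from each other by a root mean square of 0.181 (WT) and 0.187 (Hox13-/-) log2 units over the 155 peaks. All 5 limb mesenchyme markers (Prrx1, Prrx2, Twist1, Msx1, Pdgfra) had a peak at a promoter, with strongest peaks between 5.55 and 7.10 in the 4 libraries. A promoter peak was found for 2 of 7 muscle precursor markers (Met, Myod1), 3 of 4 tendon markers, 2 of 6 ectoderm markers, 2 of 5 endothelium markers, 1 of 4 blood markers and 1 of 3 neural crest markers. The strongest promoter peaks of the ectoderm, blood and neural crest markers lay between 2.63 and 3.64. Those of the endothelium markers Kdr and Tek lay between 5.56 and 6.75, inside the mesenchyme range. No promoter peak of a marker outside the mesenchyme list passed the test. Of that list Twist1 had 1 lower promoter peak of 2 in Hox13-/-, and Pdgfra had 1 of 8. The strongest Twist1 peak differed by -0.40, whereas the strongest Pdgfra peak differed by 0.20 (limma, adjusted p = 0.29). The strongest peaks of Prrx1 (0.21), Msx1 (0.07) and Prrx2 (-0.15) did not pass. The mean of the tendon promoter peaks (Scx, Mkx, Egr1) was 6.75 and 6.80 in WT and 6.51 and 6.54 in Hox13-/-, with Scx at -0.32 (adjusted p = 0.059), and its part in the results below was not tested. Over the targeted genes, the Hoxa13 promoter peak was at 5.71 and 5.95 in WT and 5.66 and 5.84 in Hox13-/-. Of the Hoxd13 promoter peaks, 1 fell by 0.52 (limma, adjusted p = 6.1e-04) and the other differed by -0.26 (adjusted p = 0.14). Accessibility at these promoters does not test whether the alleles are null.

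Accessibility around the 6 genes changed in both directions in Hox13-/- distal buds. Of the 155 peaks, 25 were lower in Hox13-/- and 19 were higher by limma on the rLog values of all peaks (two-sided, Benjamini-Hochberg adjusted p under 0.05), and 111 did not pass. Lower peaks made up 16.1% of the members and 8.31% of all 61954 peaks, and higher peaks 12.3% and 11.4%. In both directions together 44 of the 155 were called (28.4%), against 19.7% of all peaks. The median difference over the 155 peaks was -0.03 log2 units, against -0.0052 over all peaks. Most called differences were modest. Of the lower peaks 1, upstream of Eya4, also passed a 2-fold difference, as did 0.224% of all peaks, and of the higher peaks 1, upstream of Six2, did so, as did 0.313% of all peaks. In tissue libraries of this kind, fewer cells with an open site and a less open site in each cell cannot be told apart.

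Both WT libraries lay above both Hox13-/- libraries at 55 of the 155 peaks and below them at 43, which makes 98 peaks with the libraries apart, and the same was found at 29.6%, 29.7% and, together, 59.2% of all peaks. Of the 44 called peaks, 43 had the libraries of the genotypes apart and 1 did not. The calls come from the same libraries, so this is no separate evidence of the differences. A permutation test of 2 libraries against 2 cannot reach 0.05. limma's standard error was nearly common to all peaks (0.0897 to 0.131 at the members), so a call here weighs a peak's own replicate spread very little. Leaving out any 1 library lowered the number of calls in both directions, at the members as over all peaks. Calls that held under every rescaling of the libraries and with every library left out in turn numbered 11 lower and 8 higher. The matching share of all peaks is not given here, so these counts do not show whether the members hold more such calls than other peaks. Among the members in the stronger 50% of peaks, 8 of 72 were lower and 17 were higher, against 10.6% and 16.1% of all peaks of that signal.

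**Figure D1:**
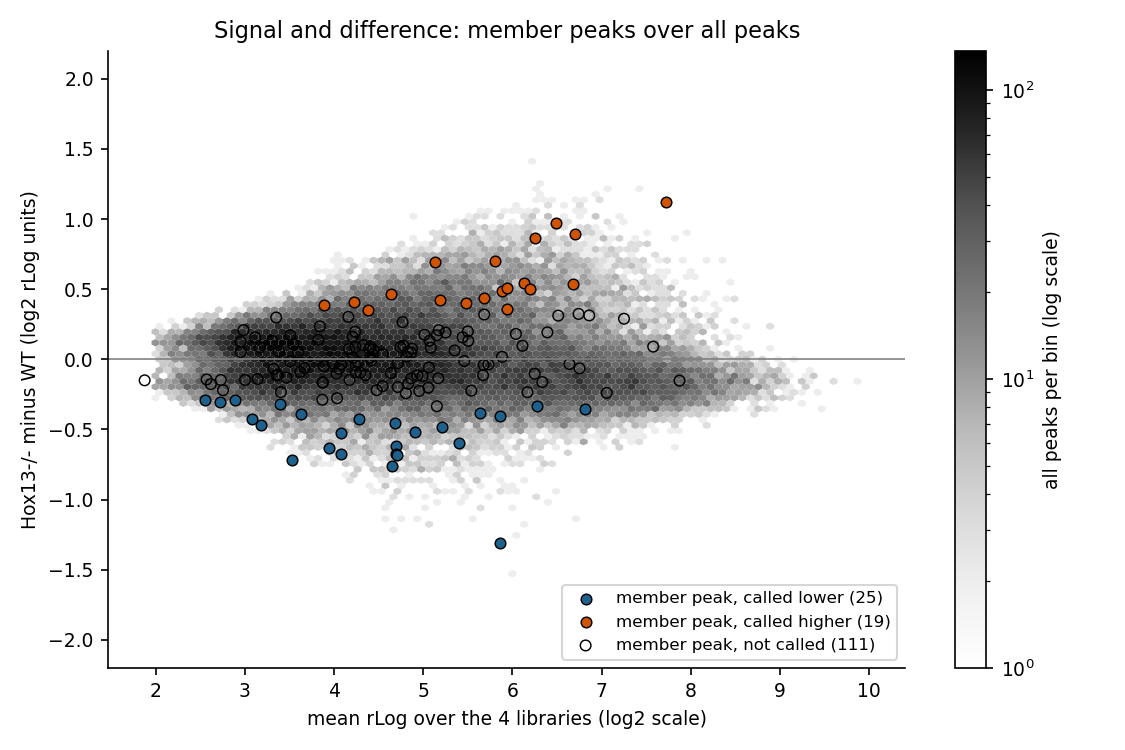
Each peak's mean rLog over the 4 libraries (x axis, log2 scale) against its Hox13-/- minus WT difference (y axis, log2 rLog units), with all 61954 peaks as grey bins and the 155 member peaks as circles, filled where called. Of the 25 lower peaks 9 have a mean signal under 4, against 1 of the 19 higher peaks, the lowest filled circle is an Eya4 peak at -1.31, and the highest filled circle is a Six2 peak at 1.12.

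The called peaks are given next for each gene, and a difference between genes was not tested. Of all 61954 peaks 8.31% were lower and 11.4% higher. In the Eya4 window 7 of 19 peaks were lower and 2 higher, and in the Six4 window 6 of 32 were lower and 1 higher. In the Six2 window 4 of 33 were lower and 7 higher. Around Eya1 the directions were nearly balanced, with 5 of 21 lower and 4 higher, and around Eya2 only 2 of 36 were lower and 3 higher. Around Dach1 1 of 14 was lower (7.14%) and 2 were higher (14.3%), near the shares of all peaks. The Eya2 shares (5.56% and 8.33%) lay below those of all peaks. Median differences were -0.15 for Eya4, -0.10 for Six4, -0.05 for Eya2, -0.01 for Eya1, 0.08 for Six2 and 0.17 for Dach1. The windows of Dach1, Eya1 and Eya4 held no other protein-coding start site, whereas those of Six2, Six4 and Eya2 held 3, 6 and 8 other coding genes, and the member was the nearest coding gene at 88 of the 155 peaks, of which 13 were lower and 10 higher. At those 88 peaks Six4 had 4 peaks and no call, and Six2 had 20 peaks with 1 lower and 3 higher.

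**Figure D2:**
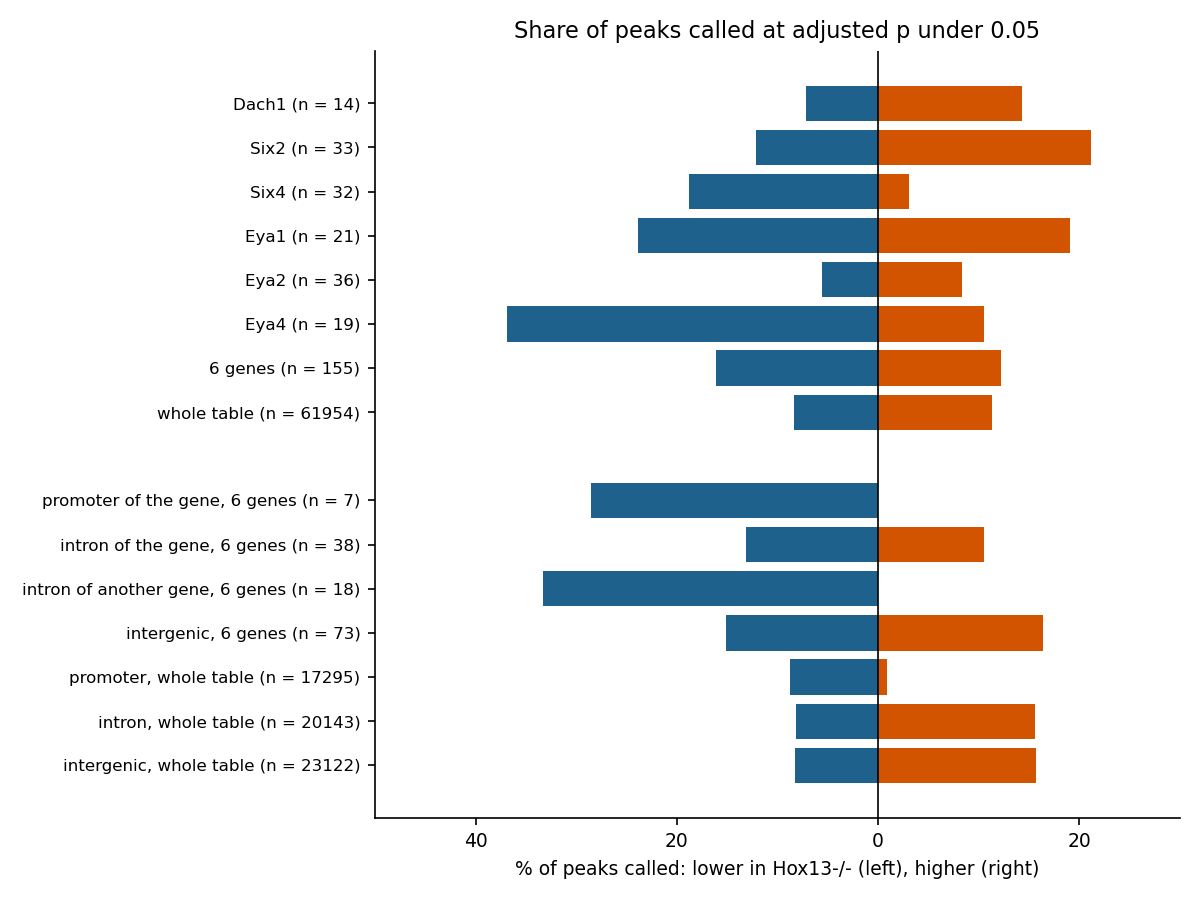
Percentage of peaks called lower (left of 0) and higher (right of 0) in Hox13-/- at adjusted p under 0.05, for each gene's window, for the classes of member peaks and for the whole table, with the number of peaks beside each bar. Eya4 has the longest bar for lower peaks and Six2 the longest for higher peaks among the windows, and higher calls are near absent at promoters in the whole table.

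By position, the 6 genes had 7 peaks within 1 kb of a start site of their own, of which 2 were lower and none higher. Of all promoter peaks, 8.7% were lower and 0.85% higher. Of 38 peaks in introns of the 6 genes 5 were lower and 4 higher, where 8.14% and 15.6% of all intron peaks were called. Of 73 peaks outside protein-coding genes 11 were lower and 12 higher, where 8.22% and 15.7% of all such peaks were called. Of these 73 peaks 54 lay over 100 kb from the member's start site (74%), as did all 11 of the lower and 9 of the 12 higher ones. Of 18 peaks in introns of another gene 6 were lower and none higher, with 5 of the 6 in the Six4 window. The remaining 16 peaks at promoters of other genes held 1 lower and 2 higher calls, and 3 exon peaks held 1 higher call.

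**Figure D3:**
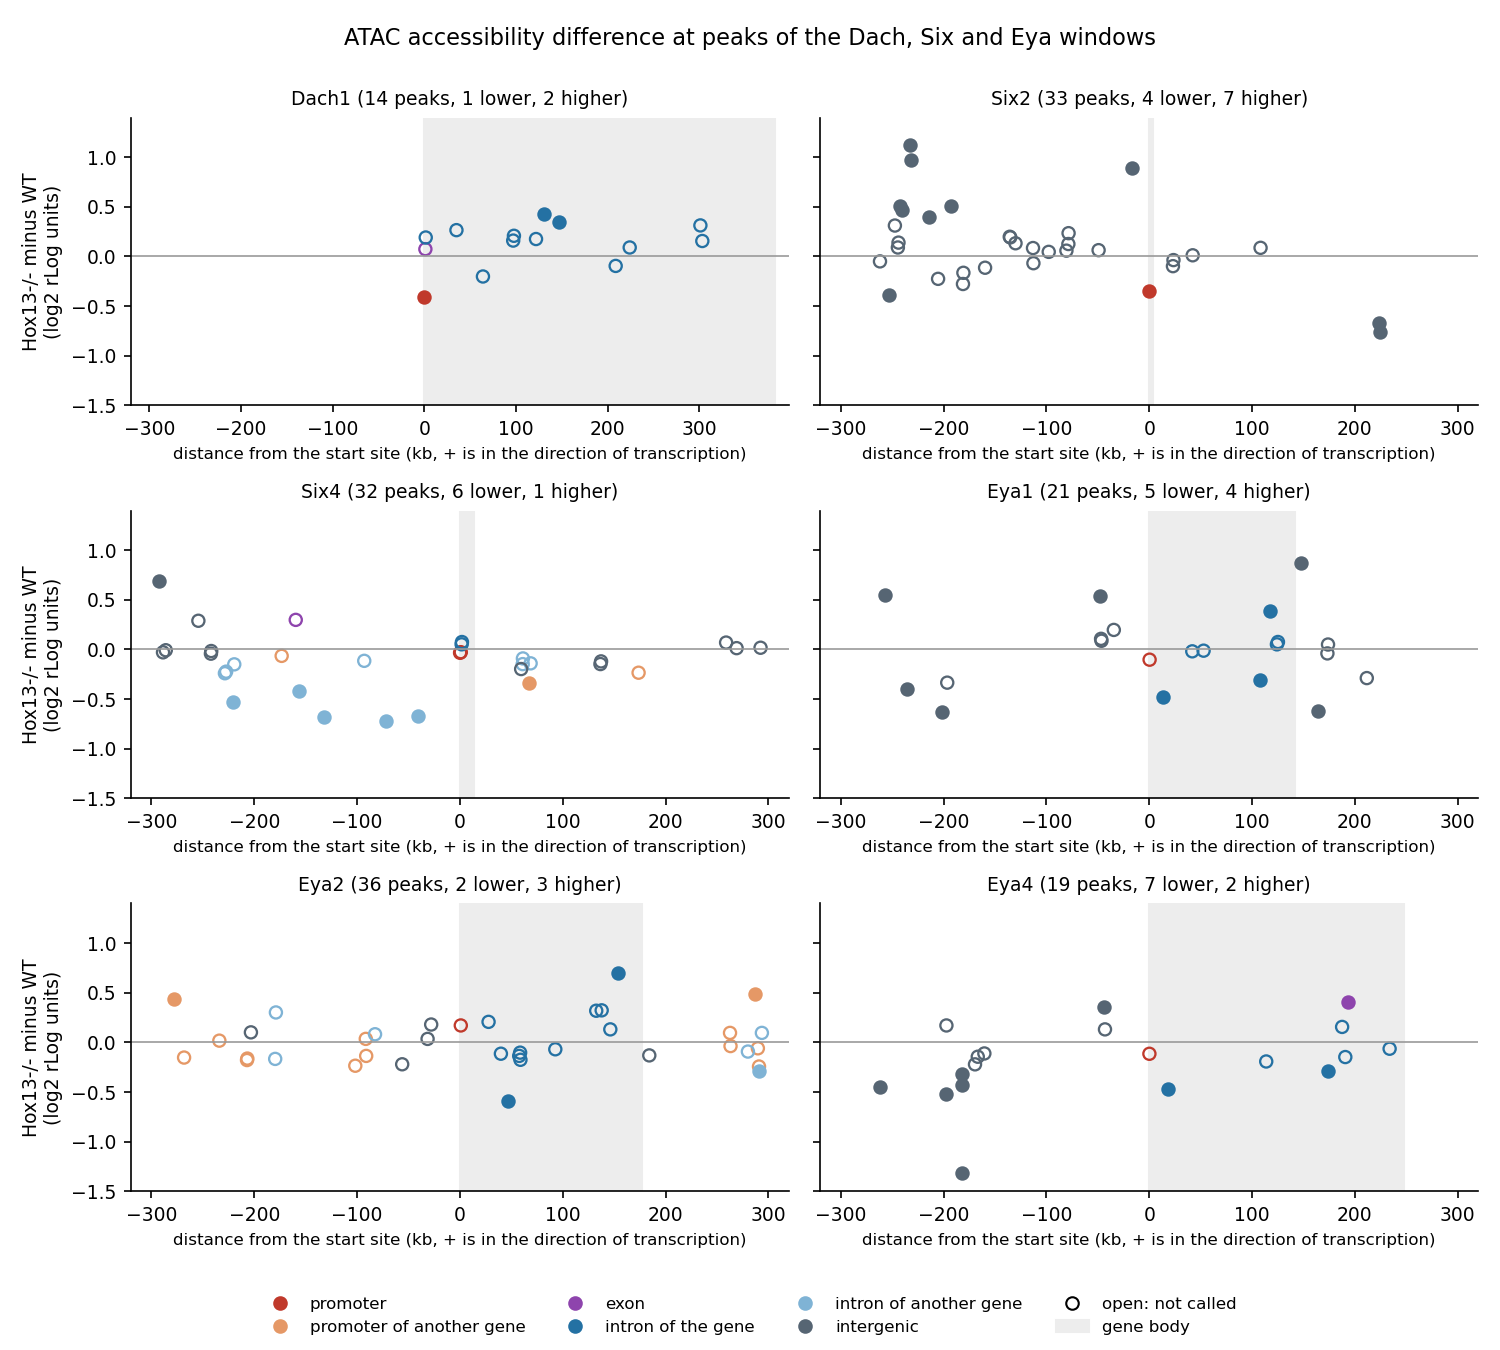
Hox13-/- minus WT difference (y axis, log2 rLog units) of each member peak against its distance from the gene's start site (x axis, kb, positive in the direction of transcription), 1 panel per gene, coloured by position class, filled where called and with the gene body shaded. The lowest point is the Eya4 peak at -1.31, the Six2 panel rises to 1.12 far upstream, and the filled intron points left of the Six4 start site all lie below 0.

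Dach1 and Six2 had a promoter peak that fell. The Dach1 promoter peak (chr14:98169754-98170089, 0.2 kb upstream) was at 5.96 and 6.17 in WT and at 5.65 and 5.66 in Hox13-/-, a fall of 0.41 (95% interval -0.66 to -0.15, limma, adjusted p = 0.013). Its libraries did not overlap, and the call was lost without the second WT library (adjusted p = 0.19) or without either Hox13-/- library (0.081 and 0.068), against 6.2e-03 to 0.19 over all alternatives. The Six2 promoter peak (chr17:85688161-85688668) was at 6.99 in both WT libraries and at 6.53 and 6.75 in Hox13-/-, a fall of 0.35 (95% interval -0.60 to -0.10, adjusted p = 0.033). This call was lost with cyclic loess scaling (0.072), with a GC correction (0.26, with or without the replicate block) and without either WT library or the first Hox13-/- library (0.095 to 0.34), against 0.017 to 0.34 over all alternatives.

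The promoter peaks of the other 4 genes did not pass the test. At the Six4 start site the peak 0.1 kb downstream, which covers the 5' end of the first exon, was at 6.79 and 6.52 in WT and 6.58 and 6.67 in Hox13-/-, a difference of -0.03 (95% interval -0.28 to 0.22), and the peak 0.8 kb downstream, over coding sequence of exon 1, differed by -0.03 (-0.28 to 0.23). The Eya1 promoter peak, over a non-coding first exon, was at 6.31 and 6.29 in WT and 6.00 and 6.39 in Hox13-/-, a difference of -0.10 (-0.36 to 0.15). The Eya4 promoter peak differed by -0.11 (-0.35 to 0.12) and the Eya2 promoter peak by 0.17 (-0.07 to 0.41). The genotypes overlapped at all of them except the Eya4 promoter. Per kb of peak, WT promoter signal was highest at Six2 (7.97 and 7.96 as rLog minus log2 of the length in kb), followed by Six4 (7.90 and 7.64), Eya1 (7.67 and 7.66) and Dach1 (7.53 and 7.74), of which Six4, Eya1 and Dach1 did not differ beyond their spread. Eya4 (6.69 and 6.61) and Eya2 (5.82 and 6.03) had lower promoter signal on the same scale.

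Six2, a SIX-family gene of connective tissue and kidney progenitors, had the clearest gains. The peak of its window with the smallest p and the highest mean over the 4 libraries (chr17:85920805-85921717, 233.0 kb upstream, sequence above) was at 7.07 and 7.26 in WT and 8.31 and 8.26 in Hox13-/-, a rise of 1.12 (95% interval 0.88 to 1.37, adjusted p = 6.7e-17). Both Hox13-/- libraries lay about a full log2 unit above both WT libraries, and in WT alone a peak 244.4 kb upstream had more signal (7.47 and 7.60). It belonged to a run of 5 consecutive peaks, all higher in Hox13-/-, that spanned 28.0 kb from 214.5 to 242.0 kb upstream. In this run the peak 232.0 kb upstream rose from 5.98 and 6.04 to 6.98 and 6.97 (0.97, adjusted p = 5.7e-12), and the others rose by 0.40 to 0.50. The nearest coding gene at 4 of these 5 peaks is Srbd1, an RNA-binding protein gene, and 3 of the 5 lie within the non-coding transcript AC151289.1.

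Closer to the gene, a peak 16.6 kb upstream of Six2 (chr17:85704555-85705171) was at 6.33 and 6.18 in WT and 7.20 and 7.10 in Hox13-/-, a rise of 0.89 (95% interval 0.64 to 1.14, adjusted p = 2.5e-10). Six2 is the nearest coding gene there, and the call held under all 13 alternatives. The peaks of the window that fell most lay on the other side of the gene. A pair of neighbouring peaks 223.9 and 224.2 kb downstream (within 0.6 kb, nearest coding gene Six3) fell by 0.67 and 0.76, with the second at 5.18 and 4.89 in WT and 4.21 and 4.33 in Hox13-/- (adjusted p = 2.6e-07). Six3 is the family member best known from the forebrain and eye. A peak 253.2 kb upstream also fell, by 0.39 (adjusted p = 0.021), a call lost without either WT library (0.053 and 0.13) or the second Hox13-/- library (0.22), against 3.6e-03 to 0.22 over all alternatives. On the upstream side of Six2, 7 of 27 peaks were higher and 2 lower, and on the downstream side none of 6 was higher and 2 were lower. Of all peaks outside protein-coding genes, 15.7% were higher and 8.22% lower. The upstream gains include the run of 5 peaks, and the 2 downstream falls are the neighbouring pair. A difference between the sides was not tested.

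Six4, a SIX-family gene of muscle precursors, had few peaks of its own among the 32 of its window. These were 2 at its promoter and 2 in its introns, and none was called. Over all peaks 8.31% were called lower, so the absence of a call at so few peaks says little about Six4 itself. Of the 6 lower peaks 5 lay in introns of other genes and 1 at a promoter of another gene. All 12 peaks of the window in introns of other genes had a difference below 0, as did 8055 of all 20143 intron peaks. Of the 12 peaks 5 were called lower. Of these, 4 lie in introns of Mnat1, a gene of the CDK-activating kinase complex, and 1 in an intron of Slc38a6, a transporter gene. The Mnat1 intron 5 peak (chr12:73185024-73185183, 71.6 kb upstream of Six4) was at 3.72 and 4.07 in WT and 3.18 and 3.17 in Hox13-/-, a fall of 0.72 (95% interval -0.96 to -0.48, adjusted p = 1.7e-07). The peaks in Mnat1 introns 1 and 7, 40.9 and 132.4 kb upstream, fell by 0.67 (adjusted p = 8.4e-06) and 0.68 (adjusted p = 5.6e-06), and the genotypes were apart at all of these peaks. The Slc38a6 intron peak, 220.6 kb upstream, fell by 0.53.

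The only higher peak of the Six4 window, 292.3 kb upstream and nearest to Slc38a6, rose from 4.85 and 4.72 to 5.32 and 5.63 (0.69, adjusted p = 4.5e-06). The peak with the highest mean over the 4 libraries, 254.4 kb upstream, was at 7.04 and 7.17 in WT and 7.42 and 7.37 in Hox13-/- and did not pass (adjusted p = 0.087), and in WT alone a Slc38a6 intron peak 228.6 kb upstream was higher (7.13 and 7.23). Of the muscle precursor markers, Pax3, Pax7, Lbx1, Myf5 and Myog had no promoter peak, and the mean of the Met and Myod1 promoter peaks was 4.36 to 4.40 in WT and 4.23 to 4.41 in Hox13-/-. The part of muscle precursors in the Six4 result was not tested.

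**Figure D4:**
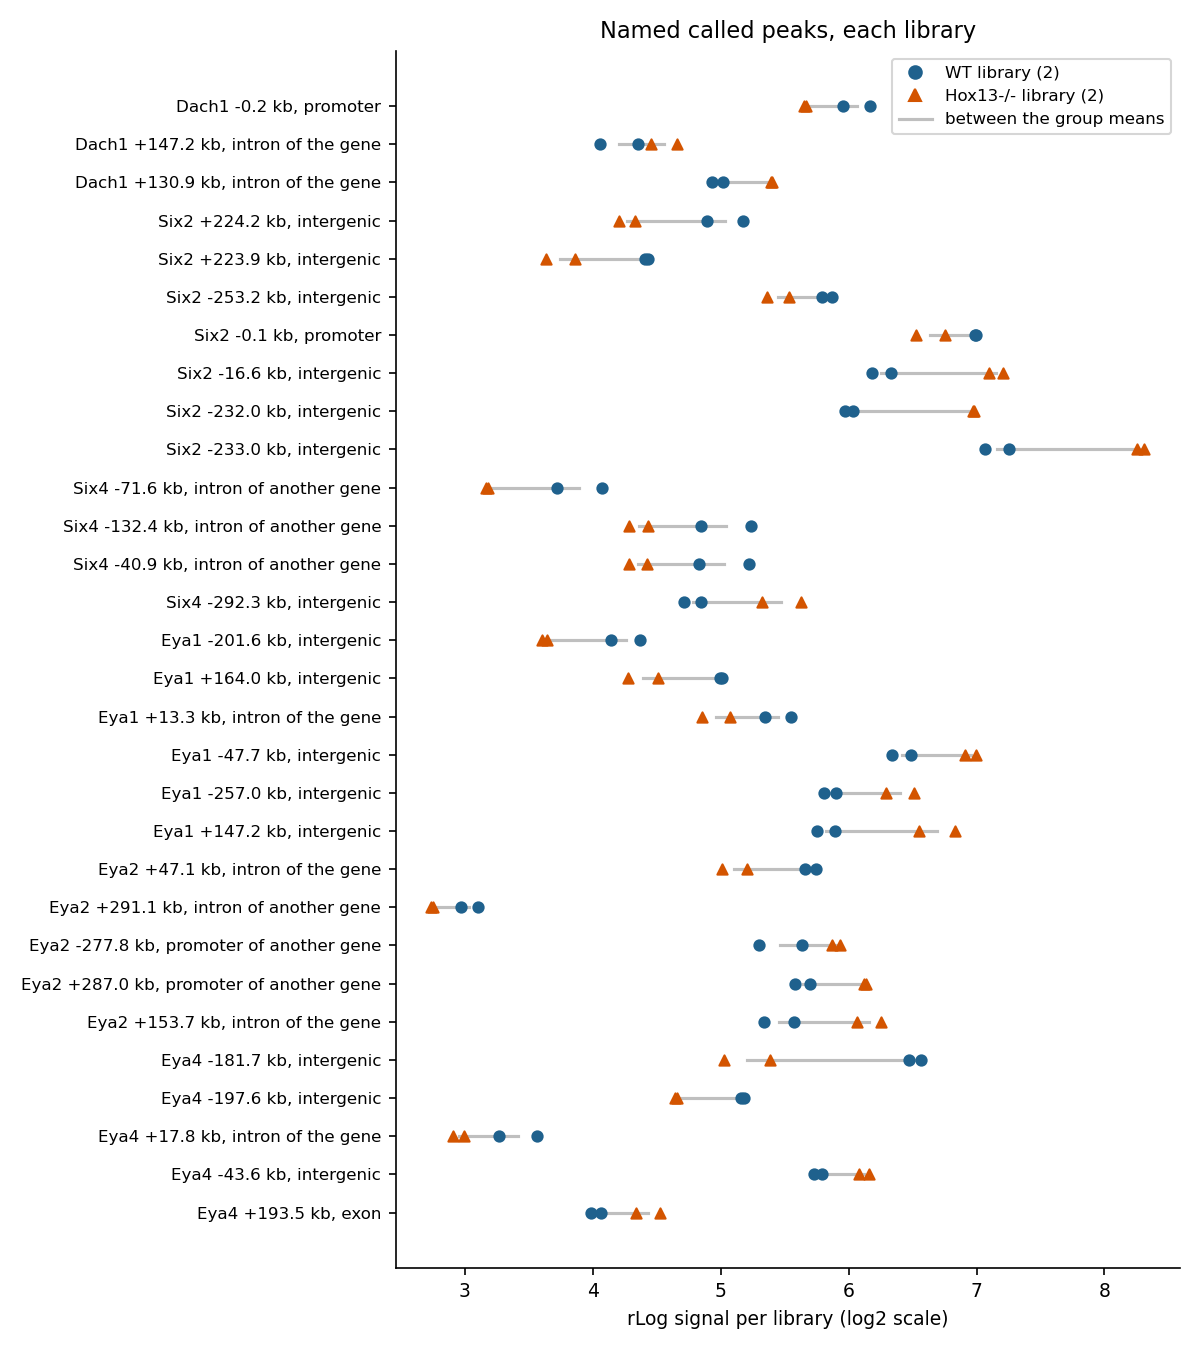
rLog signal (x axis, log2 scale) in each of the 4 libraries for the named called peaks (rows, by gene and distance from its start site), with circles for WT, triangles for Hox13-/- and a line between the group means. The rows were picked as called peaks from these same libraries, and circles and triangles do not mix in any of them. The widest gap is at the Eya4 peak 181.7 kb upstream, at 6.56 and 6.47 against 5.38 and 5.03.

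Eya1, an EYA coactivator of connective tissue and of several organ primordia, had changes of both signs close together. A peak 147.2 kb downstream of the start site, past the 3' end of the gene (chr1:14162707-14163411), was at 5.89 and 5.76 in WT and 6.55 and 6.83 in Hox13-/-, a rise of 0.87 (95% interval 0.62 to 1.12, adjusted p = 1.4e-09). The next called peak beyond it, 164.0 kb downstream, went the other way, from 5.00 and 5.01 to 4.27 and 4.51 (-0.62, adjusted p = 5.7e-05). Upstream, the peak with the highest signal of the window (47.7 kb) rose from 6.34 and 6.49 to 6.91 and 7.00 (0.54, adjusted p = 3.8e-04). A peak 201.6 kb upstream fell from 4.37 and 4.14 to 3.61 and 3.64 (-0.63, adjusted p = 1.6e-05), and a peak 257.0 kb upstream, nearest to the bHLH gene Msc, rose by 0.55, a call lost without the first Hox13-/- library (0.051, against 2.1e-04 to 0.051 over all alternatives). Within the gene, the peak in intron 3 (13.3 kb downstream) was at 5.55 and 5.34 in WT and 4.85 and 5.08 in Hox13-/- (-0.48, adjusted p = 2.6e-03). The intron 3 call was lost without the first WT or the first Hox13-/- library (0.10 and 0.11), against 2.2e-04 to 0.11 over all alternatives.

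Eya2 had the smallest share of called peaks of the 6 genes, and its changes inside the gene went both ways. The intron 1 peak 47.1 kb downstream (chr2:165641972-165642349) was at 5.74 and 5.66 in WT and 5.20 and 5.01 in Hox13-/-, a fall of 0.59 (95% interval -0.85 to -0.34, adjusted p = 1.1e-04). The intron 9 peak 153.7 kb downstream (chr2:165748499-165748997) was at 5.57 and 5.34 in WT and 6.25 and 6.06 in Hox13-/-, a rise of 0.70 (95% interval 0.45 to 0.95, adjusted p = 2.4e-06), and both calls held under all 13 alternatives. By distance to start sites Zmynd8 is nearer to the second of these peaks than Eya2. The other 3 called peaks of the window belong to its neighbours. Peaks at promoters of Elmo2 and Zmynd8, genes of cell engulfment and of chromatin reading, rose by 0.43 (adjusted p = 7.5e-03) and 0.49 (adjusted p = 2.1e-03), and a weak Zmynd8 intron peak fell by 0.29 (adjusted p = 0.046). The Elmo2 call was lost without the first WT library (0.28, with a difference of 0.26) or the first Hox13-/- library (0.081), against 2.2e-03 to 0.28 over all alternatives. The Zmynd8 intron call was lost under 5 of 11 alternatives, among them no variance trend (0.085) and the replicate block (0.055), with adjusted p from 5.5e-03 to 0.25. The strongest peak of the window, at another Elmo2 start site, was at 7.83 and 8.07 in WT and 7.69 and 7.91 in Hox13-/- and did not pass.

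Eya4, known best from the inner ear and muscle, had the largest fall of all 155 peaks. The peak 181.7 kb upstream of its start site (chr10:23532255-23532751, sequence above) was at 6.56 and 6.47 in WT and 5.38 and 5.03 in Hox13-/-, a fall of 1.31 (95% interval -1.57 to -1.06, adjusted p = 4.3e-21). Both WT libraries stood more than 1 log2 unit above both Hox13-/- libraries, and the fall ranged from 1.13 to 1.49 when each library was left out. The next peaks upstream, within the same 1.1 kb, fell by 0.43 (adjusted p = 2.1e-03) and 0.32 (adjusted p = 0.042). A HOX13-type word was found in the 497 bases of the main peak but outside the central 300 shown. A further peak 197.6 kb upstream (chr10:23548244-23548573) was at 5.16 and 5.18 in WT and 4.64 and 4.66 in Hox13-/- (-0.52, adjusted p = 9.9e-04). At the lower peak 261.9 kb upstream (-0.45), WT at 5.15 and 4.66 overlapped Hox13-/- at 4.71 and 4.20.

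Inside Eya4, the intron 1 peak 17.8 kb downstream fell from 3.57 and 3.27 to 2.99 and 2.91 (-0.47, adjusted p = 8.1e-04), a call lost without the first WT library (0.11, against 2.9e-04 to 0.11 over all alternatives). Higher peaks were fewer and smaller. The peak over coding exon 8 (chr10:23157191-23157470, of which 144 bases are exon, sequence above) was at 4.06 and 3.99 in WT and 4.53 and 4.34 in Hox13-/-, a rise of 0.41 (95% interval 0.16 to 0.66, adjusted p = 0.012). That call was lost with the GC correction (0.054) and without the second WT or the first Hox13-/- library (0.11 and 0.18), against 8.8e-03 to 0.18 over all alternatives. A peak 43.6 kb upstream rose by 0.36 (adjusted p = 0.033) and was lost under 8 of 13 alternatives, with adjusted p from 0.026 to 0.19.

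Dach1, the cofactor gene of the set, lies alone in its window, and all 14 of its peaks are inside the gene or at its start. Of its 12 intron peaks 10 had a difference above 0 and 8 had both Hox13-/- libraries above both WT libraries, while the promoter peak fell. Of all 20143 intron peaks 8055 had a difference below 0 and 7828 had both Hox13-/- libraries above both WT libraries. Of all 17295 promoter peaks 13180 were below 0. The called intron peaks of Dach1 were neighbours in intron 1. The peak 130.9 kb downstream (chr14:98038608-98039063, sequence above) was at 4.93 and 5.02 in WT and 5.39 and 5.40 in Hox13-/- (0.42, 95% interval 0.17 to 0.68, adjusted p = 0.010), and the peak 147.2 kb downstream was at 4.35 and 4.06 in WT and 4.45 and 4.66 in Hox13-/- (0.35, adjusted p = 0.039). The first call was lost without the first WT library (0.10) or without either Hox13-/- library (0.059 and 0.068), against 6.4e-03 to 0.10 over all alternatives. The second was lost under 5 alternatives, among them median centring (0.065) and leaving out the second WT (0.43) or the second Hox13-/- library (0.33), with adjusted p from 0.024 to 0.43. No Dach1 call held under every rescaling and every left-out library. The strongest Dach1 peak, in intron 6, was at 6.81 and 6.60 in WT and 6.99 and 7.05 in Hox13-/- (0.31, adjusted p = 0.063), and passed under 6 of 13 alternatives.

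Lower and higher member peaks are described next by length, GC content, peak calls and signal, without a test. The 25 lower peaks had a median length of 274 bases and a GC content of 44.6%, and the 19 higher peaks 470 bases and 47.3%, against 236 bases and 53.6% for the 111 uncalled peaks. The same measures over all 61954 peaks were 315 bases and 48.7% for lower, 395.5 bases and 47.8% for higher and 221 bases and 53.3% for uncalled peaks. The authors' table lists the libraries whose peak calls were merged into each peak. Of the 25 lower peaks 20 came from WT libraries only (80%, against 50.9% of all lower peaks), and of the 19 higher peaks 9 came from Hox13-/- libraries only (47.4%, against 58.9% of all higher peaks). These peak calls come from the same libraries as the differences and are no separate evidence of them. Signal at lower peaks had a median of 4.91 in WT and 4.27 in Hox13-/-, and at higher peaks of 5.64 and 6.13.

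A HOX13-type word stood in 16 of the 155 peaks (10.3%), against 7.54% of all peaks, in 2 of the 25 lower peaks and in 2 of the 19 higher ones. Such a word was held by 14.0% of all lower peaks and by 12.8% of all higher peaks among the 61954. The lower member peaks with a match were the Eya4 peaks 181.7 and 261.9 kb upstream, and the higher ones were the Eya4 exon 8 peak and the Six2 peak 242.0 kb upstream. The SIX-type word stood in 3 of the 155 peaks and in 0.725% of all peaks, and none of the 3 was called. RefSeq promoter sequence of GRCm38.p6 was matched for 4 of the 6 genes, with 6 promoters of 300 bases. None of these 6 held a HOX13-type word and 1, of Six4, held the SIX-type word. Among 32851 RefSeq promoters CAATAAA stood in 4.6%, the other HOX13-type word in 0.597% and the SIX-type word in 0.429%. A match to these letters is a description of the sequence and not evidence of binding.

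Other genes of the network were read with the same windows. The list held 13 genes (Six3, Six5, Six6, Eya3, Dach2, Pax2, Pax3, Pax6, Pax7, Pax8, Ski, Skil and Sobp), of which Dach2 is on the X chromosome and outside the table. Outside the member windows they had 269 peaks, of which 17 were lower (6.32%) and 24 were higher (8.92%). Both shares lay below those of all 61954 peaks, 8.31% and 11.4%. None passed 2-fold in either direction, where 0.224% of all peaks did so as lower and 0.313% as higher peaks. The counts of single genes below were not tested against these shares. Around Pax3, the upstream regulator of the network in muscle precursors, 1 of 16 peaks was lower and 6 were higher, with the largest rise in an intron of Sgpp2 (4.87 and 5.42 to 5.98 and 5.68, 0.68, adjusted p = 5.1e-06). Around Sobp, the gene of a SIX-interacting protein, 2 of 37 were lower and 7 higher, and its promoter peak rose by 0.40 (adjusted p = 0.015). Around Ski, a relative of the DACH proteins, 4 of 49 were lower and 2 higher, and its promoter peak fell by 0.32 (adjusted p = 0.049). Around Pax7 4 of 20 were higher and none lower, around Six5 4 of 53 were lower and 1 higher, and around Skil no peak of 16 was called. The windows of Six3 and Six6 shared 24 and 18 peaks with those of Six2 and Six4, so their counts are not separate from the members'.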

How the data were processed

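ATAC-seq libraries of distal forelimb buds, 2 WT and 2 Hox13-/-, were compared, and 2 proximal libraries were left out. According to the study's methods and the submitters' processing notes, the authors aligned reads to mm10 with bowtie2 2.3.1, called peaks per library with MACS2 2.1.1.20160309, merged them with HOMER 4.9.1 and compared the genotypes with DESeq2. The table's origin column names an H3K27ac input for the peak calls, whose effect on the regions listed was not tested. The deposited values are rLog values, on a log2 scale and scaled for library size. Handling of the Tn5 offset, duplicates and blacklisted regions is not given in the sources used here, and a missing offset correction is a shift of a few bases. The authors' own log2 fold change, p-value and adjusted p-value columns were not used.

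Hox13-/- minus WT was fitted by limma 3.58.1 (R 4.3.3) to all 61954 peaks (genotype term, variance trend, Benjamini-Hochberg), without a filter, and a peak was called at an adjusted p under 0.05. On simulated data for this comparison over 61954 peaks, 92 of 200 peaks changed by 0.5 log2 units and 200 of 200 changed by 1.5 were recovered. Only 200 peaks changed there and all peaks had a common variance, whereas 12186 peaks were called in the data. The adjusted threshold was therefore stricter in the simulation, and its recovered share does not carry over to the data. Genes were placed with GENCODE M21 basic, a promoter being within 1 kb of a start site, and sequence was read from GRCm38.p6 with pysam 0.24.0. The member genes, the lists and the words searched were chosen with earlier results of these data known. Named peaks are each gene's promoter peaks, its 3 called peaks of smallest p per direction and its strongest peak, and other peaks of a run, the one in Slc38a6 and the one with overlapping libraries were named after their values were seen. Alternatives were median, quantile and cyclic loess scaling, no variance trend, the upper 75% or 50% of peaks by signal, other thresholds, a 100 kb window, nearest genes only, leave-one-out fits, a GC correction and a replicate block. The shared replicate numbers do not pair embryos. A neighbouring gene in 1 window is not reported here.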

Additional observations from a re-analysis of the deposited data

How the results depend on the processing

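Of the 25 lower peaks 8 remained a call among the stronger 50% of peaks, and the count was 16 at an adjusted p under 0.01, 10 in 100 kb windows, 13 where the member was the nearest coding gene and 15 to 19 with 1 library left out, where the lone library of a genotype is assumed to vary like the other genotype. The 19 higher peaks of 155 became 8 of 76 in 100 kb windows and 10 of 88 at nearest genes. With a 1.5-fold threshold 9 lower and 6 higher peaks passed. In 100 kb windows 0 passed 2-fold in either direction (limma, 10 lower and 8 higher without the fold threshold), 0 higher peaks did so at nearest genes, and leaving out 1 library gave 1 to 2 higher. Differences of uncalled promoter peaks changed sign with the GC correction, with or without the replicate block, at Eya1 (0.012), Eya4 (0.023) and Six4 0.8 kb downstream (0.094). They also changed sign with 1 library left out, with ranges from -0.30 to 0.092 at Eya1, from -0.18 to 0.13 at Six4 0.8 kb downstream and from -0.17 to 0.099 at Six4 0.1 kb downstream, where leaving out the first Hox13-/- library gave 0.012. The cause was not tested. A replicate block gave 24 lower and 19 higher peaks, and same-numbered libraries did not deviate together (r = -0.011 over all peaks). The 3 other scalings gave 24 to 26 lower and 17 to 22 higher peaks. Median centring moved lower calls from 42.2% to 53.1% of the calls in the whole table and from 56.8% to 60.5% at the 155 peaks. At an unadjusted p under 0.05, 30 of the 155 peaks were lower and 27 higher. The other 54 of 70 recomputed counts stayed within 1.5 times their main value.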
